A study of Mus musculus with 25 samples.

Results

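The genes described here are the nuclear genes of oxidative phosphorylation, the final stage of respiration in mitochondria. They were taken from the count table by symbol: every gene whose symbol begins with Nduf followed by a, b, c, s or v, with Cox4 to Cox8, with Uqcr or with Atp5, together with Sdha, Sdhb, Sdhc and Sdhd. Pseudogene names were left out. The rule found 93 of the 24537 gene models. Of these, 81 encode structural subunits: 36 of complex I, 4 of complex II, 8 of complex III, 18 of complex IV and 15 of complex V. The other members are 11 assembly factors or related proteins that the spelling of the symbol brings in, such as Ndufaf7 and Cox7a2l, and Ndufa4l2, a paralog of the complex IV subunit Ndufa4. The rule uses symbols and no measured value. A total of 88 members passed the filter on low counts and were tested. The 5 that did not pass were Atp5g2, Cox4i2, Cox7b2, Cox8b and Cox8c.

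Complexes I and II take electrons from NADH and succinate and pass them through ubiquinone to complex III, from which cytochrome c carries them to complex IV and oxygen. Complexes I, III and IV pump protons across the inner mitochondrial membrane, and complex V, the ATP synthase, uses the return flow to make ATP. All complexes but II also hold subunits encoded in mitochondrial DNA, which are not analysed here. Macrophages are known to shift between oxidative and glycolytic metabolism with their state of activation, and some subunits of complex IV exist as isoforms restricted to muscle, brown fat, lung or testis.

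RNA was measured by sequencing in 25 libraries, each made from 200 sorted cells of C57BL6 mice. Mice were fed a high fat diet (HFD, 45% fat) or a control diet (CD, 10% fat). Adipose tissue macrophages, from fat that the titles call eWAT, came in 4 sorted populations. Tim4 marked the first pair, in which pop1 was low and pop2 was high for MHCII. The Tim4- pair was split by CD11c: pop4 carried it and was MHCII+, and pop3 lacked it and was high for MHCII. Each gate had 2 HFD and 2 CD libraries. Blood monocytes, sorted on CD115 and Ly6C, had 3 HFD and 6 CD libraries. The labels give no age, sex, time on diet or number of animals behind a library, so p-values measure the spread between libraries, which may be technical. All adipose CD libraries are titled CD-CD, so diet and title series cannot be told apart there. Of the CD monocyte libraries, replicates 1, 2 and 3 are titled CD and replicates 6, 7 and 8 CD-CD, so this group mixes both title series. Collagenase digestion, with flavopiridol present to block transcription, is described for fat, and no digestion is described for blood, so tissue, gate and handling cannot be told apart between adipose macrophages and monocytes. In sorted pools such as these, fewer cells of a type and less RNA per cell cannot be told apart either.

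Library totals were 3752835 to 9336395 counts, and 3 counts, taken as the floor, corresponded to 0.342 to 0.700 CPM (a gene's count scaled to a common library size, with TMM factors). Floors cover counting error only. Some marker genes separated the labelled groups. The monocyte gene Ly6c2 did, at 0.18 to 21.9 CPM in adipose libraries and at 434 to 674 CPM in monocytes. The macrophage gene Adgre1 did not, at 288 to 906 CPM in adipose libraries and at 335 to 507 CPM in monocytes. Levels of MHCII genes, which bear on the split of pop1 from pop2, are not given here. Timd4, which encodes Tim4, was at 88.9 to 626 CPM in Tim4+ libraries and at 0 to 11.9 CPM in Tim4- libraries, and Itgax, which encodes CD11c, was at 180.4 to 192 CPM in pop4 and 1.13 to 43.7 CPM in pop3. Other cells' markers differed between groups. The summed level of 8 adipocyte genes was 232 to 754 CPM in adipose libraries and 7.02 to 28.2 CPM in monocytes, and that of 7 red cell genes was 1.83 to 637 CPM in adipose libraries and 407 to 1422 CPM in monocytes. The sum over olfactory and vomeronasal receptor genes, which neither cell type is known to use, was 194 to 686 CPM in pop1, pop2 and pop3, against 79.6 to 190 CPM in pop4 and 93.1 to 256 CPM in monocytes. It is called the background sum below.

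The promoters of 5 members are printed as examples, chosen after their values were seen. Ndufa10 and Atp5d are described in every comparison, Uqcrc1 and Uqcrfs1 of complex III passed the test in 3 or more comparisons, and Sdhd holds matches to 3 of the 4 motifs searched, which belong to factors known to act on respiratory genes. Windows run from 250 bases before to 50 bases after the RefSeq start (GRCm38.p6), and 77 of the 93 members matched a window. Motifs were searched on both strands as GCGCA, any base, then GCGC (NRF1), ACCGGAAG (GABPA), TCAAGGTCA (ERRA) and AAGATGGCG (YY1), which do not contain each other. NRF1 letters were in 18 of the 77 member windows (23.4%) and in 6.65% of all 18196 windows. GABPA letters were in 9.09% of member windows and 3.14% of all, YY1 letters in 10.4% and 1.96%, and ERRA letters in 2.60% and 0.330%. A match is a description of letters and does not show binding. Capitals mark matches. The windows are chr9:108936398-108936697 (plus strand) for Uqcrc1, chr9:50603800-50604099 (minus) for Sdhd, chr13:30545267-30545566 (minus) for Uqcrfs1, chr1:92473709-92474008 (minus) for Ndufa10 and chr10:80142065-80142364 (plus) for Atp5d, all written 5′ to 3′. Uqcrc1 holds 2 NRF1 matches, Sdhd holds an NRF1, a GABPA and an ERRA match, and the others hold none of the 4 motifs in these windows.
Uqcrc1: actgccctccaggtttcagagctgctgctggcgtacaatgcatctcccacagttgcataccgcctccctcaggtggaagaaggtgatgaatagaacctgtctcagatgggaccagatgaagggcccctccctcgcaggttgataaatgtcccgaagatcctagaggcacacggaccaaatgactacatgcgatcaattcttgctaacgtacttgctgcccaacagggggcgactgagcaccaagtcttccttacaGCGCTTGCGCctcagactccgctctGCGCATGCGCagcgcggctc
Sdhd: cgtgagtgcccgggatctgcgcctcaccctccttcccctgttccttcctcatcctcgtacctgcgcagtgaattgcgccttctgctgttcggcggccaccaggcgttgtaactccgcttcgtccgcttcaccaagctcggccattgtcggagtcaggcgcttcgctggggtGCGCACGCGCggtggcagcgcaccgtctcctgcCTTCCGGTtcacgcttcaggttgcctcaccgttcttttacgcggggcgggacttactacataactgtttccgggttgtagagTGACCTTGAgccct
Uqcrfs1: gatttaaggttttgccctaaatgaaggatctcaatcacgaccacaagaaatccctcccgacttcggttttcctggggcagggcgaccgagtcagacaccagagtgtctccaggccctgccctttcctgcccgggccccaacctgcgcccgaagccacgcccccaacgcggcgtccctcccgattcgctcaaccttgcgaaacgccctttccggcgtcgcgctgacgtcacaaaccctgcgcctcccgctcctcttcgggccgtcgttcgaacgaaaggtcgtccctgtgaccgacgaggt
Ndufa10: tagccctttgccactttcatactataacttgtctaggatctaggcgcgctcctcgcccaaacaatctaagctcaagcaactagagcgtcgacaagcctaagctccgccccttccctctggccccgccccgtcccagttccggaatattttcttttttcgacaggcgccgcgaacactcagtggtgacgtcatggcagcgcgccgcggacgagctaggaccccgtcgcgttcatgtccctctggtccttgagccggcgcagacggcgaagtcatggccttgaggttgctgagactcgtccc
Atp5d: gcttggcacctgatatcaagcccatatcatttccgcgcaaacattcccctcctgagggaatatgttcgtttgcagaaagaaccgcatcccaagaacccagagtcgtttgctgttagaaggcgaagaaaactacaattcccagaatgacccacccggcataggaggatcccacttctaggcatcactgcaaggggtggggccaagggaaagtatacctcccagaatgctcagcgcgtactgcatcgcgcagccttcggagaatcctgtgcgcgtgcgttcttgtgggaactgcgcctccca

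The members were among the abundant RNAs of both tissues. Per kilobase of gene model, the scale used to compare genes, their median level was 149 CPM per kb, against 6.43 CPM per kb over all 16961 genes tested, and 86 of the 88 tested members lay above that median. In complexes I and III accessory subunits had the highest levels. In complex I the highest levels were those of Ndufb8, Ndufa3 and Ndufa1, at 468, 412 and 374 CPM per kb in adipose macrophages. Low levels were seen in subunits with long and with short gene models. In adipose macrophages Ndufs1, which carries iron-sulfur clusters, was at 30.3 CPM per kb and Ndufv1, which binds NADH, at 31.9. The lowest was Ndufab1, the acyl carrier protein (793 bases), at 14.4 CPM per kb. Ndufb4 (449 bases) and Ndufs5 (504 bases) were at 46.7 and 43.7 CPM per kb in adipose macrophages. In complex III, Uqcr10 (370.0 CPM per kb) and Uqcrh (346) stood above the core proteins Uqcrc2 (72.2) and Uqcrc1 (65.2) in adipose macrophages. In complex II all 4 subunits were within 3.71-fold of each other over all libraries, from Sdha, the flavoprotein, to Sdhd, the membrane anchor. In complex V the central stalk subunit Atp5e was highest at 378 CPM per kb in adipose macrophages, and the catalytic subunit Atp5b was at 106.

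Summed over all 93 members, libraries ranged from 9888 CPM (pop1 HFD 2) to 14146 CPM (Mono HFD 2). The mean sum was 11284 ± 940 CPM in pop1, 11849 ± 230 in pop2 and 11013 ± 462 in pop3, against 13235 ± 481 in pop4 and 12798 ± 1011 in monocytes (SD, n = 4 for each adipose population and n = 9 for monocytes). No test was run on sums. The order depends on scaling: with DESeq2 size factors the means were 12011 CPM in pop1, 13109 in pop2, 11462 in pop3, 12578 in pop4 and 11932 in monocytes, so that pop2 was above pop4. For complex III, the libraries of pop1, pop2 and pop3 held 976 to 1264 CPM of complex III RNA, against 1371 to 1561 CPM in pop4 and 1319 to 1661 CPM in monocytes, with no overlap. With DESeq2 size factors these ranges overlapped, at 1029 to 1317 CPM in pop1, pop2 and pop3, against 1279 to 1480 CPM in pop4 and 1276 to 1509 CPM in monocytes. Complex II means were also lower in the first 3 populations, with 980 ± 204 CPM of complex II in pop1, 1034 ± 60.2 in pop2 and 978 ± 97.5 in pop3, against 1238 ± 82.1 in pop4 and 1290.0 ± 98.4 in monocytes, and they stayed lower with DESeq2 size factors. The complex V mean was 2041 ± 108 CPM in pop2 and 2306 ± 162 CPM in monocytes, but 2256 ± 112 and 2150 ± 135 CPM with DESeq2 size factors. The complex IV mean was lowest in monocytes with either scaling. Under TMM it was 2026 ± 169 CPM in pop1, 2196 ± 62.4 in pop2, 2003 ± 179 in pop3 and 2043 ± 134 in pop4, against 1871 ± 232 in monocytes. The CD monocytes differed by title series under TMM. Complex IV was at 1865 to 2116 CPM in those titled CD and 1558 to 1735 CPM in those titled CD-CD. Complex I was at 4995 to 5686 and 4417 to 4683 CPM.

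**Figure D1:**
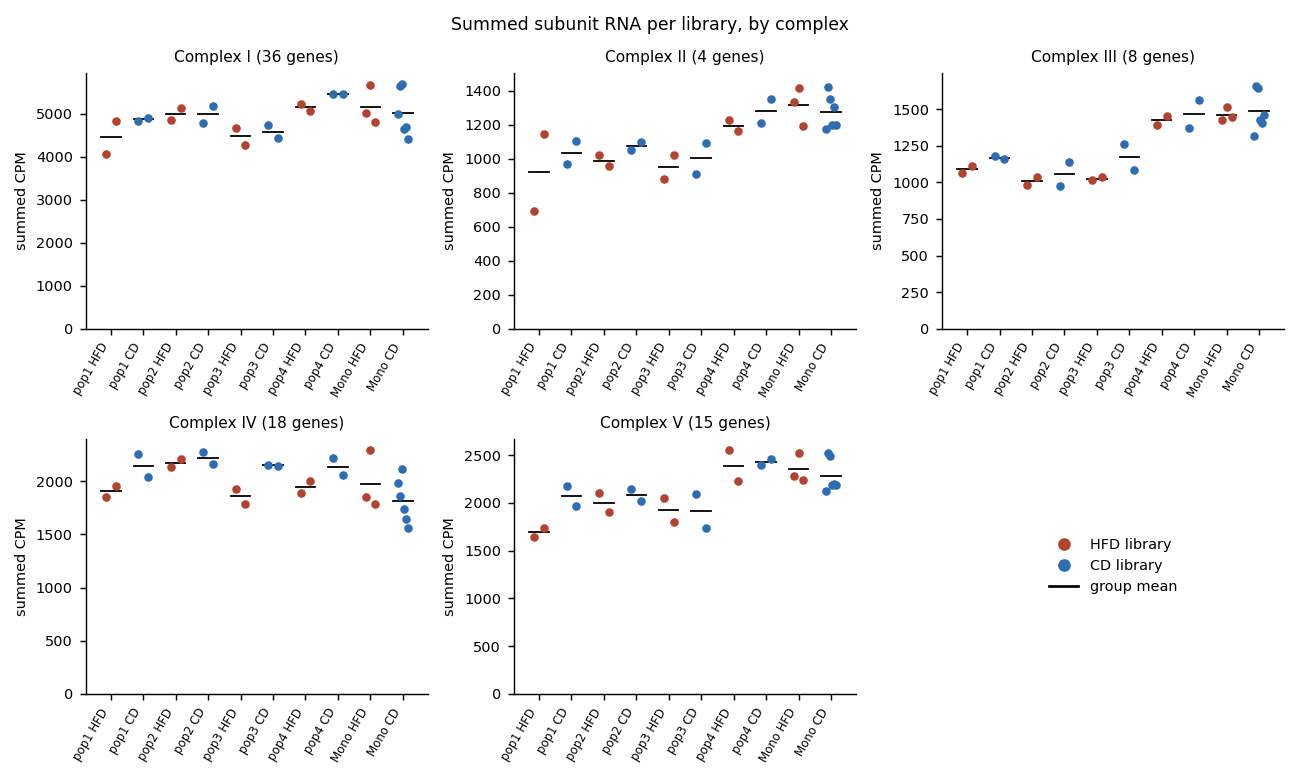
Summed CPM of the members of each complex (y axis, from 0) in every library, with adipose populations and monocytes by diet on the x axis and lines for group means. Complex III lies at 976 to 1264 CPM in pop1, pop2 and pop3 and at 1319 CPM or above in pop4 and monocytes (ranges that overlap with DESeq2 size factors), while the complex IV ranges of the populations and monocytes overlap.

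Complex IV RNA came mainly from the widely expressed isoforms in every library. Cox6a1 was at 189 to 242 CPM in adipose libraries and 169 to 245 CPM in monocytes, and Cox4i1, Cox6b1, Cox7a2 and Cox8a were at 149 CPM or more in all 25 libraries. Per kilobase, Cox6b1 and Ndufa4 led complex IV at 504 and 479 CPM per kb in adipose macrophages. Of the isoforms known from heart, muscle and brown fat, Cox7a1 had counts in every library, though Mono CD 7 held 2, below the floor. It had a lowest, median and highest level of 9.65, 20.4 and 41.4 CPM in the 16 adipose libraries, against 0.254, 1.54 and 3.96 CPM in the 9 monocyte libraries. The groups did not overlap, and the log2 difference was 3.60 ± 0.58 (SE), with an adjusted p of 5.80e-05 by edgeR's quasi-likelihood test. Its partner isoform Cox7a2 was at 164 to 244 CPM in the adipose libraries, above every Cox7a1 value. Adipocyte markers moved with Cox7a1 between the tissues, as given above. So did the summed level of 7 stromal progenitor genes, at 48.1 to 1398 CPM in adipose libraries and 0.363 to 3.64 CPM in monocytes. The summed level of 5 brown adipocyte genes was 0.246 to 6.61 CPM in adipose libraries and 0.172 to 2.62 CPM in monocytes. Ucp1, the uncoupling protein that defines brown fat, was at 0 to 1.39 CPM in adipose libraries and 0 to 0.47 CPM in monocytes. The part of these markers in the difference was not tested.

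Cox6b2, known from testis, fell in adipose macrophages: it was at 0.138, 15.4 and 47.3 CPM (lowest, median, highest), against 24.3, 35.4 and 49.1 CPM in monocytes, a log2 difference of -1.40 ± 0.54 (adjusted p = 0.0461 by edgeR). This call was lost in 16 of the 25 fits that left out a library, with adjusted p up to 0.103, without the third HFD monocyte library. Cox6a2, the muscle partner of Cox6a1, was patchy. It was at 2.25 and 17.5 CPM in pop3 HFD and at 0 and 16.4 CPM in pop3 CD, but had 0 counts in all 4 pop4 libraries, and in monocytes it did not exceed 1.63 CPM. Ndufa4l2 was likewise at 0 to 11.9 CPM in pop1, pop2 and pop3 and at 0 to 0.261 CPM in pop4. Cox4i2, the lung isoform of Cox4i1, was at 0 to 0.934 CPM in adipose libraries and 0 to 0.374 CPM in monocytes, near the floor, and Cox7b2, Cox8c and, with 1 exception of 3.36 CPM in pop1 CD 8, Cox8b were near it too. Among the genes for the membrane ring subunit of complex V, Atp5g3 (165 to 327 CPM in adipose libraries, 168 to 229 CPM in monocytes) stood far above Atp5g1 (8.87 to 36.5 and 17.2 to 27.1 CPM) and Atp5g2 (0 to 1.21 and 0 to 1.5 CPM). These encode the same mature protein and share coding sequence, so reads could be split between them.

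**Figure D2:**
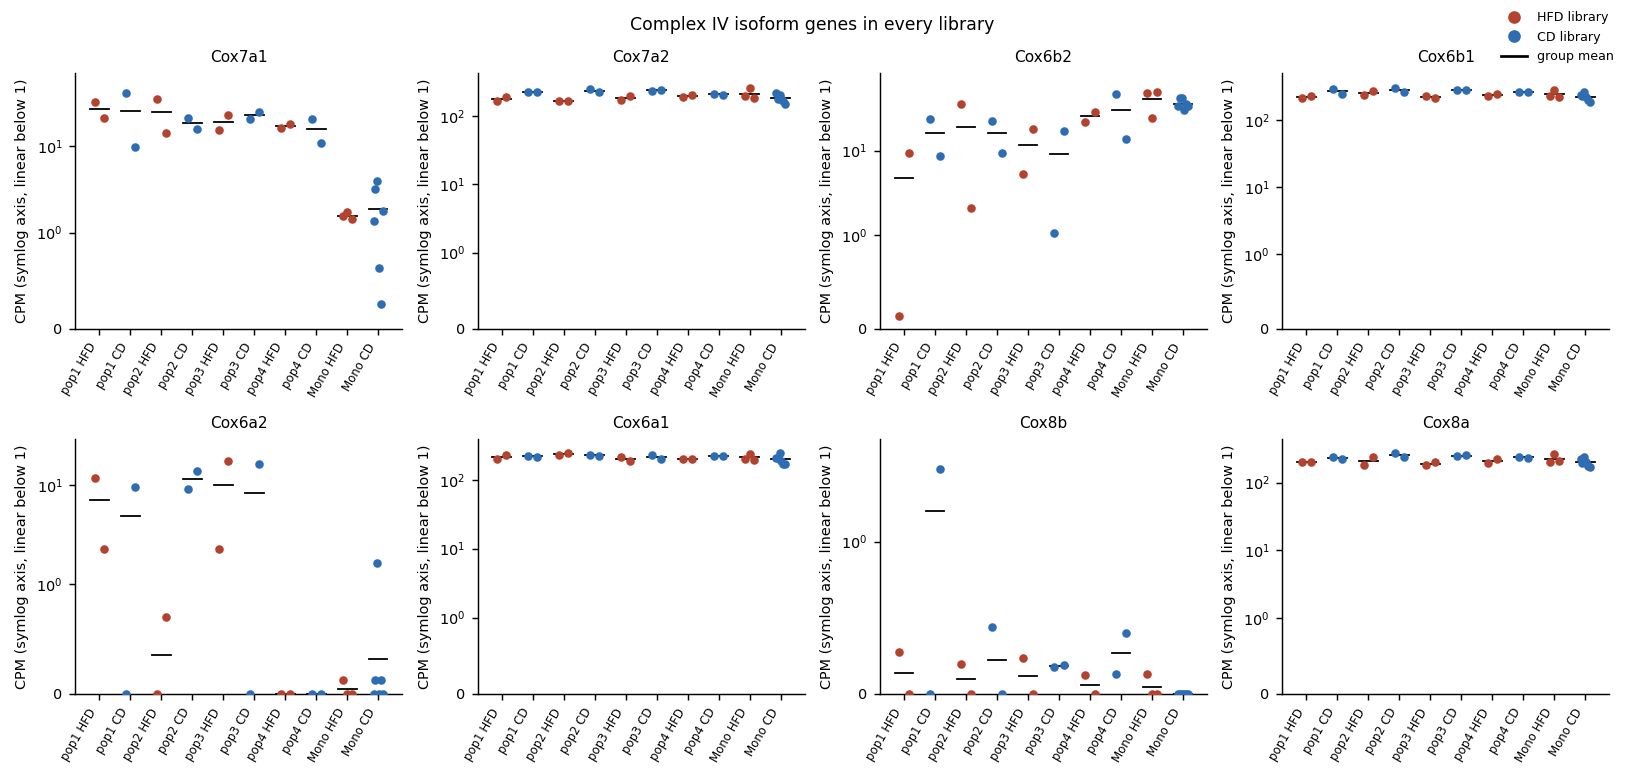
CPM of complex IV isoform genes in every library by population and diet (y axis logarithmic above 1 CPM and linear below, lines at group means). Cox7a1 is at 9.65 to 41.4 CPM in adipose libraries and at 0.254 to 3.96 CPM in monocytes, Cox6a2 is at 0 in pop4, and Cox7a2, Cox6b1, Cox6a1 and Cox8a vary little.

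The comparison of adipose macrophages with blood monocytes asks what differs between tissue macrophages and a circulating cell of the same lineage. In adipose macrophages 2 of 4 subunits of complex II, 3 of 8 of complex III and 4 of 14 of complex V fell. Smaller shares fell in complex I (4 of 36) and complex IV (1 of 14), and 2 of 11 assembly factors fell. Cox7a1, Cox5a, Ndufa2, Ndufa5 and Ndufaf2 rose. Of 88 members tested, 5 rose and 16 fell at an adjusted p of 0.05 (edgeR's quasi-likelihood test, Benjamini-Hochberg adjustment over all genes), which is 23.9% of members against 37% of all genes, or 18.5% in each direction. The share of members that fell was thus near that of all genes, and the share that rose was below it. The members' median log2 difference was -0.03, against 0.19 over all genes. The split depends on scaling: 16 rose and 13 fell with DESeq2 size factors, and 12 rose and 13 fell with upper-quartile factors, which shift the median of all genes by 0.16 and 0.12 on the log2 scale. Each member named below as falling kept an adjusted p under 0.05 with both factors, except Atp5f1, Atp5d and Cox6b2.

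In complex III, Uqcrc2, Uqcrfs1 and Uqcrc1 fell and none of the 5 other members passed the test. Uqcrc2, a core protein on chromosome 7 (120635189 to 120659523, mm10), had a lowest, median and highest level of 34.9, 135 and 260 CPM in adipose macrophages, against 149.9, 290 and 352 CPM in monocytes. The ranges overlapped, since the pop4 libraries, pop1 HFD 3 and both pop3 CD libraries exceeded the lowest monocyte library, and the log2 difference was -1.24 ± 0.16 (adjusted p = 4.31e-06, edgeR). Uqcrfs1, the Rieske iron-sulfur protein, was at 118, 204 and 364 CPM in adipose macrophages and at 307, 354 and 408 CPM in monocytes, a difference of -0.70 ± 0.11 (adjusted p = 5.99e-05, edgeR). Uqcrc1, the other core protein, averaged 107 ± 71.4 CPM in adipose macrophages and 189.8 ± 53.0 CPM in monocytes (SD, n = 16 and 9), a log2 difference of -1.06. By population Uqcrc1 averaged 88.5 CPM in pop1, 61.3 in pop2, 81.1 in pop3 and 197 in pop4, so its pop4 mean was not below that of monocytes. Uqcrfs1 averaged 209, 162, 199 and 322 CPM in pop1 to pop4, against 354 CPM in monocytes. In complex II, Sdhd fell by 0.52 on the log2 scale, with 237, 381 and 546 CPM in adipose macrophages and 478, 521 and 647 CPM in monocytes, and Sdhb, the iron-sulfur subunit, fell by 0.65. Sdha and Sdhc did not pass the test.

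In complex V, Atp5c1 (gamma subunit), Atp5b (beta), Atp5f1 (peripheral stalk) and Atp5d (delta) fell by 0.62, 0.56, 0.32 and 0.45 on the log2 scale, and none of the other 10 tested members passed. In pop4 alone Atp5b and Atp5d averaged 294 and 156 CPM, above the 282 and 140 CPM of monocytes. Atp5f1 and Atp5c1 averaged 271 and 318 CPM in pop4, against 277 and 378 CPM in monocytes. The Atp5f1 call was lost without Mono HFD 2 (adjusted p = 0.0555, edgeR), and the Atp5d call without pop3 HFD 3, pop4 HFD 3, Mono CD 1, Mono CD 3 or any HFD monocyte library (adjusted p up to 0.079). In complex I, Ndufs1, Ndufs8, Ndufa9 and Ndufs4 fell, by 0.93, 0.96, 0.86 and 0.48. In pop4 Ndufs8 and Ndufa9 averaged 167 and 188 CPM, against 178 and 192 CPM in monocytes. Ndufs1 and Ndufs4 averaged 122 and 225 CPM in pop4, against 158 and 264 CPM in monocytes. Of these 4, Ndufs1 and Ndufs8 carry iron-sulfur clusters. Ndufa5 rose by 0.50 ± 0.13 and had 91.4, 131 and 158 CPM in adipose macrophages, against 75.8, 89.8 and 107 CPM in monocytes (adjusted p = 0.00626, edgeR). Ndufa2 rose by 0.27 and the complex IV subunit Cox5a by 0.36, but the Ndufa2 call was lost in 23 of the 25 fits that left out a library, and Cox5a had an adjusted p of 0.0767 without pop2 CD 7. Ndufa10, an accessory subunit on chromosome 1 (92439719 to 92473758), averaged 79.6 ± 50.3 CPM in adipose macrophages and 99.3 ± 35.7 CPM in monocytes and did not pass (log2 difference -0.54 ± 0.29, adjusted p = 0.147, edgeR).

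Among assembly factors the differences were larger. Ndufaf7, a methyltransferase needed for the assembly of complex I, had 7.24, 41.2 and 100.2 CPM in adipose macrophages, against 146, 178 and 248 CPM in monocytes. The groups did not overlap, and the log2 difference was -2.17 ± 0.25 (adjusted p = 6.29e-07, edgeR). Ndufaf2, an assembly factor that binds late intermediates of complex I, went the other way, with 14, 64.5 and 112 CPM in adipose macrophages and 12.6, 24.8 and 29.8 CPM in monocytes (log2 difference 1.33 ± 0.31, adjusted p = 0.00222, edgeR). Ndufaf3 fell by 1.24.

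**Figure D3:**
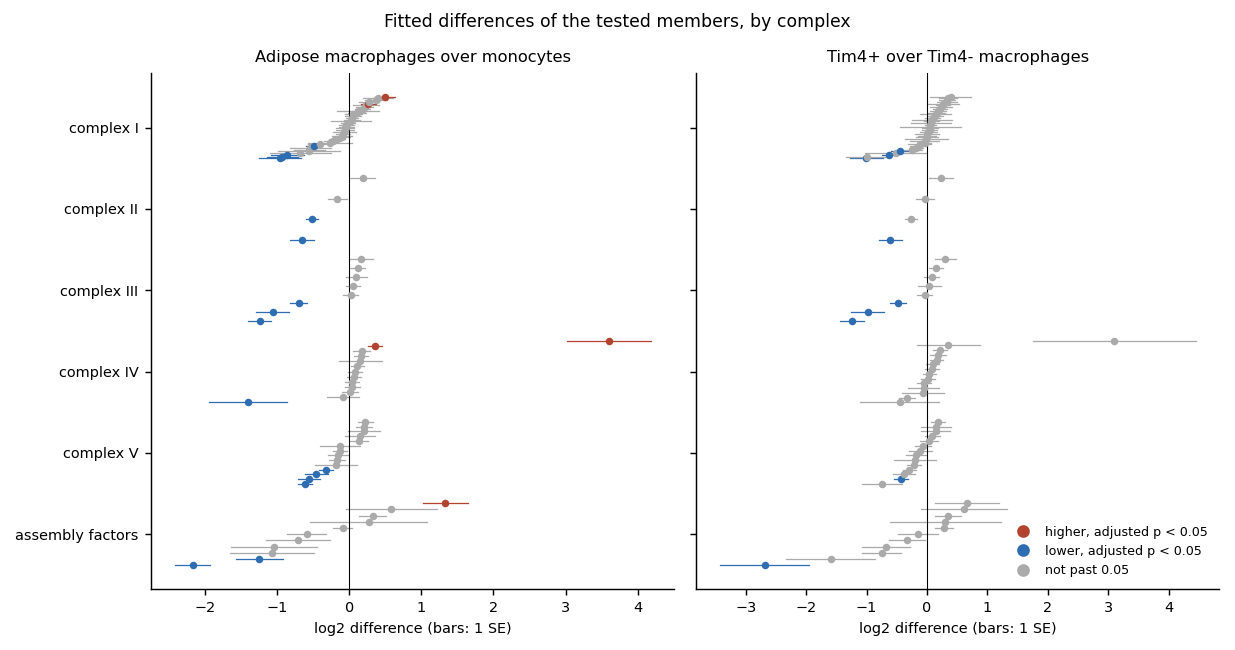
Fitted log2 differences (x axis, bars 1 SE) of tested members by complex for adipose macrophages over monocytes (left) and Tim4+ over Tim4- macrophages (right), coloured by call. Cox6a2 is left off the left panel because groups with 0 counts give no usable estimate, and the paralog Ndufa4l2 is not drawn. The 3 lowest points of complex III are Uqcrc2, Uqcrc1 and Uqcrfs1 in both panels, and Cox7a1 is the highest point on the left.

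The members that fell had longer gene models, with a median of 1418 bases, against 676 bases for those not called. Across the 88 members, which share these libraries, the log2 difference and length had a Spearman correlation of -0.58, against 0.17 over all genes. With a length trend removed per library, 13 members rose and 6 fell, and Uqcrc2, Uqcrfs1, Uqcrc1, Ndufs1, Ndufaf7 and Ndufaf3 were the 6, with adjusted p from 2.64e-06 to 0.0450 by edgeR. Sdhd, Sdhb, Atp5c1 and Atp5b then had adjusted p of 0.257, 0.141, 0.0625 and 0.25, so that no complex II or V member was called lower. With a GC trend removed per library, 16 rose and 14 fell. The background sum, lower in pop4 and monocytes, moved with the same contrast. With it as a covariate, 1 member rose (Cox7a1) and 3 fell (Ndufaf7, Uqcrc2 and Uqcrfs1).

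The Tim4+ populations, pop1 and pop2, were compared with the Tim4- populations, pop3 and pop4. No member rose and 9 of 88 fell (10.2%), against 15.1% of all genes called, 7.26% of them higher and 7.79% lower. In complex III the same 3 members fell: Uqcrc2 by 1.24, Uqcrc1 by 0.98 and Uqcrfs1 by 0.48 on the log2 scale. This comparison shares the adipose libraries with the previous comparison. By population Uqcrc1 averaged 88.5 CPM in pop1, 61.3 in pop2, 81.1 in pop3 and 197 in pop4. Uqcrfs1 averaged 209, 162, 199 and 322 CPM in the same order. For both genes the Tim4- pop3 mean was thus below that of Tim4+ pop1, and only pop4 stood above both Tim4+ populations. Uqcrc2 had a lowest, median and highest level of 34.9, 75 and 155 CPM in Tim4+ libraries, against 55.6, 189 and 260 CPM in Tim4- libraries (adjusted p = 0.000198, edgeR). Ndufs4 had 67.9, 181 and 204 CPM in Tim4+ libraries and 161, 232 and 365 CPM in Tim4- libraries, a log2 difference of -0.62 ± 0.13 (adjusted p = 0.00223, edgeR). Both ranges overlapped. The assembly factor Ndufaf5 was at 0.233, 2.67 and 39.5 CPM in Tim4+ libraries and 2.13, 34.4 and 71.2 CPM in Tim4- libraries, with a log2 difference of -2.69 ± 0.74. Ndufa9, Ndufv2, Atp5c1 and Sdhb also fell, by 1.004, 0.45, 0.43 and 0.60. Without pop3 CD 7 the adjusted p was 0.0591 for Uqcrc1 and 0.0725 for Uqcrfs1, and without pop3 CD 8 it was 0.0572 for Ndufa9 and 0.0799 for Ndufaf5 (edgeR). The same calls were lost without pop4 CD 8 (Uqcrc1), pop2 CD 7 (Uqcrfs1), pop3 HFD 3 (Ndufa9) and pop1 CD 7 (Ndufaf5). The Ndufv2 and Sdhb calls were lost in 8 and 7 of the 25 fits without a library, with adjusted p up to 0.0826 and 0.0836.

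Neither Ndufa10 (log2 difference 0.39 ± 0.34, adjusted p = 0.441) nor Atp5d (-0.11 ± 0.19, adjusted p = 0.739) passed in edgeR's test of Tim4+ over Tim4-. With DESeq2 size factors 4 members rose and 5 fell, and with upper-quartile factors 2 rose and 5 fell, against a shift of all genes by 0.12 and 0.09. Uqcrc2, Uqcrc1, Ndufs4, Ndufa9 and Ndufaf5 kept their calls under both. With the length trend removed, 13 rose and only Uqcrc2 and Ndufaf5 fell. With the GC trend removed, 6 rose and 4 fell. In CD libraries alone 1 member fell, and there Uqcrc1 differed by 0.036 on the log2 scale (adjusted p = 0.984, edgeR). With the background sum as a covariate no member passed. That sum was 245 to 686 CPM in Tim4+ libraries and 79.6 to 659 CPM in Tim4- libraries. The red cell sum was 2.27 to 637 CPM in Tim4+ libraries and 1.83 to 308 CPM in Tim4- libraries, and 5 of its 7 genes rose in Tim4+ cells. The sum of 4 B cell genes was 1.32 to 50.8 CPM in Tim4+ libraries and 3.13 to 116 CPM in Tim4- libraries, and 3 of the 4 fell in Tim4+ cells. The part of these in the differences was not tested beyond the fit with the background sum.

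Between the Tim4+ populations, pop1 (MHCII low) and pop2 (MHCII high), no member passed in edgeR's test, where 0.466% of all genes did. At an unadjusted p of 0.05, 4 members were higher and 4 lower, and DESeq2's Wald test called 4. The smallest p was that of Uqcrc2, with 140, 155, 83.7 and 87.3 CPM in pop1 and 66.3, 47.6, 34.9 and 50.3 CPM in pop2. All 4 pop1 libraries were above all 4 pop2 libraries, and the log2 difference was 1.19 ± 0.28 (adjusted p = 0.0634, edgeR). Ndufaf7 came next, with 99.2, 43.4, 50.7 and 56.0 CPM in pop1 and 23.8, 7.24, 10.2 and 38.9 CPM in pop2, also without overlap (log2 difference 1.66 ± 0.43, adjusted p = 0.103, edgeR). Leaving out pop2 HFD 2 gave 4 calls, and leaving out pop2 CD 8, pop3 HFD 2, pop3 HFD 3, pop3 CD 8 or Mono CD 1 gave 1. Ndufa10 averaged 67.4 ± 35.6 CPM in pop1 and 70.9 ± 46.3 CPM in pop2, and Atp5d 91.2 ± 33.6 and 115 ± 52.2 CPM (SD, n = 4 each).

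Within the Tim4- cells, CD11c+ pop4 was compared with CD11c- pop3. In edgeR's test 6 members rose and 1 fell (7.95%), against 6.57% of all genes called, 2.32% higher and 4.25% lower. Of the 88 members, 69 had a positive difference, and their median was 0.23 on the log2 scale, against -0.17 over all genes. Of the 6 members that rose, Ndufa10 had the largest difference, with 157, 127, 121 and 129 CPM in pop4, against 48.6, 128, 3.74 and 6.04 CPM in pop3. The pop3 HFD library 3 reached the pop4 level and the pop3 CD libraries lay far below it. The log2 difference was 2.68 ± 0.51 (adjusted p = 0.00323, edgeR), and the call held in each of the 25 fits that left out a library. Ndufs1 was at 133, 117, 89.1 and 147 CPM in pop4 and 18.3, 43.7, 48.4 and 46.8 CPM in pop3, with no overlap (log2 difference 1.66 ± 0.37, adjusted p = 0.00935, edgeR). Atp5d, on chromosome 10 (80142315 to 80145818), was at 209, 169, 127 and 118 CPM in pop4 and 201.5, 146, 38.1 and 24.9 CPM in pop3 (log2 difference 1.04 ± 0.28, adjusted p = 0.0291, edgeR). As with Ndufa10, the low values were the pop3 CD libraries.

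Uqcrc1, Atp5b and Uqcrfs1 rose by 1.31, 0.87 and 0.70 in pop4 over pop3, and Cox6a2, at 0 in pop4, fell. All 11 assembly factors had positive differences, with a median of 1.004, but none passed. With DESeq2 size factors, which shift all genes by -0.13, 2 rose and 1 fell, and with the background sum as a covariate none did. The background sum was 79.6 to 190 CPM in pop4 and 194 to 659 CPM in pop3. The summed level of 5 platelet genes was 173 to 277 CPM in pop4 and 587 to 986 CPM in pop3, and that of 7 stromal progenitor genes was 53.3 to 299 CPM in pop4 and 85.8 to 1398 CPM in pop3. The part of these cell markers in the differences was not tested. With the GC trend removed 3 rose and 2 fell, and with the length trend removed 2 rose and 2 fell. The 7 calls became 2 without pop3 HFD 2, pop3 CD 8 or any pop4 library, 3 without pop3 HFD 3 and 4 without Mono CD 2. Over the 25 fits that left out a library, the calls of Uqcrc1 and Atp5b were each lost in 17, that of Uqcrfs1 in 9, that of Atp5d in 7 and that of Cox6a2 in 6, with adjusted p up to 0.182 for Uqcrc1 and 0.212 for Atp5b, both without pop3 CD 8.

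**Figure D4:**
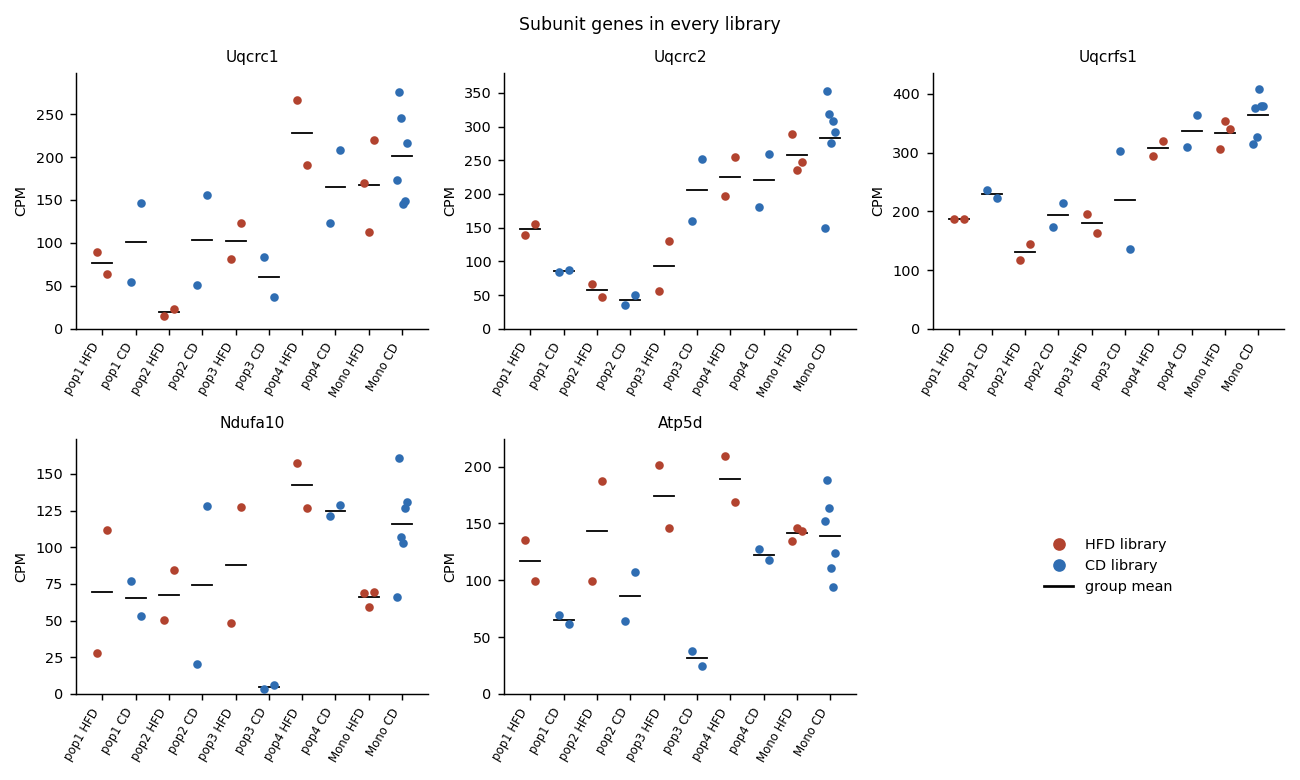
CPM (y axis, from 0) of Uqcrc1, Uqcrc2, Uqcrfs1, Ndufa10 and Atp5d in every library by population and diet, with lines at group means. Uqcrc2 is lowest in pop2 (34.9 to 66.3 CPM), and Ndufa10 (3.74 and 6.04 CPM) and Atp5d (38.1 and 24.9 CPM) are lowest in pop3 CD.

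HFD was compared with CD across the 4 adipose populations. In edgeR's test 4 members rose and 6 fell (11.4% of 88), against 5.34% of all genes called, 1.67% higher and 3.67% lower. The members' median log2 difference was -0.12, and that of all genes was also -0.12. The members that rose were Atp5d and 3 complex I subunits, Ndufb10 and Ndufb7 of the membrane arm and the iron-sulfur subunit Ndufs7. Atp5d had a lowest, median and highest level of 99.2, 158 and 209 CPM in HFD libraries, against 24.9, 66.5 and 127 CPM in CD libraries. Its fitted difference was positive in every population, and the log2 difference was 1.17 ± 0.20 (adjusted p = 0.00133, edgeR). Ndufb10 had 143, 214 and 307 CPM in HFD libraries and 99.8, 143 and 196 CPM in CD libraries, a difference of 0.60 ± 0.13. Ndufb7 had 112, 149 and 181.5 CPM in HFD libraries and 56.7, 87.5 and 149.6 CPM in CD libraries, a difference of 0.73 ± 0.19. The HFD and CD ranges overlapped for each of them.

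The members that fell with HFD were Atp5f1, Atp5c1 and Atp5j of complex V, Ndufs4 and Ndufv2 of complex I and Cox7b of complex IV. Atp5f1 had 122, 172 and 254 CPM in HFD libraries and 243, 285 and 308 CPM in CD libraries, a log2 difference of -0.70 ± 0.11 (adjusted p = 0.000895, edgeR). Ndufs4 had 67.9, 169 and 226 CPM in HFD libraries and 185, 222 and 365 CPM in CD libraries, a difference of -0.71 ± 0.13 (adjusted p = 0.00205, edgeR). Atp5c1 had 87.9, 205 and 321 CPM in HFD libraries and 225, 317 and 358 CPM in CD libraries, a difference of -0.65 ± 0.12 (adjusted p = 0.0023, edgeR). Ndufv2, Atp5j and Cox7b fell by 0.66, 0.46 and 0.52. Ndufa10 averaged 91.8 ± 46.2 CPM in HFD libraries and 67.3 ± 54.3 CPM in CD libraries and did not pass (log2 difference 1.08 ± 0.34, adjusted p = 0.0722, edgeR).

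Base composition moved with this contrast. Transcripts of the 4 members that rose had 55.5% to 61.1% GC and those of the 6 that fell 42.0% to 51.3%, and the members' log2 differences had a Spearman correlation with GC of 0.41, against 0.27 over all genes, all from the same libraries. With a GC trend removed per library 1 member rose and 7 fell: Atp5d (adjusted p = 0.0449), Atp5f1, Atp5c1 and Atp5j kept their calls in edgeR, while Ndufs7, Ndufb7, Ndufb10, Ndufv2, Cox7b and Ndufs4 had adjusted p of 0.588, 0.383, 0.167, 0.16, 0.427 and 0.0625. With the length trend removed 8 rose and 4 fell, and with the background sum as a covariate 1 rose and 5 fell. With counts summed over the 4 populations per title number, 2 sums for each diet, none passed. The 10 calls became 6 without pop4 HFD 2, pop4 HFD 3 or pop4 CD 8. Atp5d, Ndufb10, Atp5f1, Atp5c1, Ndufs4 and Ndufv2 passed in each of the 25 fits that left out a library, and Ndufs7, Cox7b, Ndufb7 and Atp5j were lost in 10, 9, 8 and 8 of them.

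**Figure D5:**
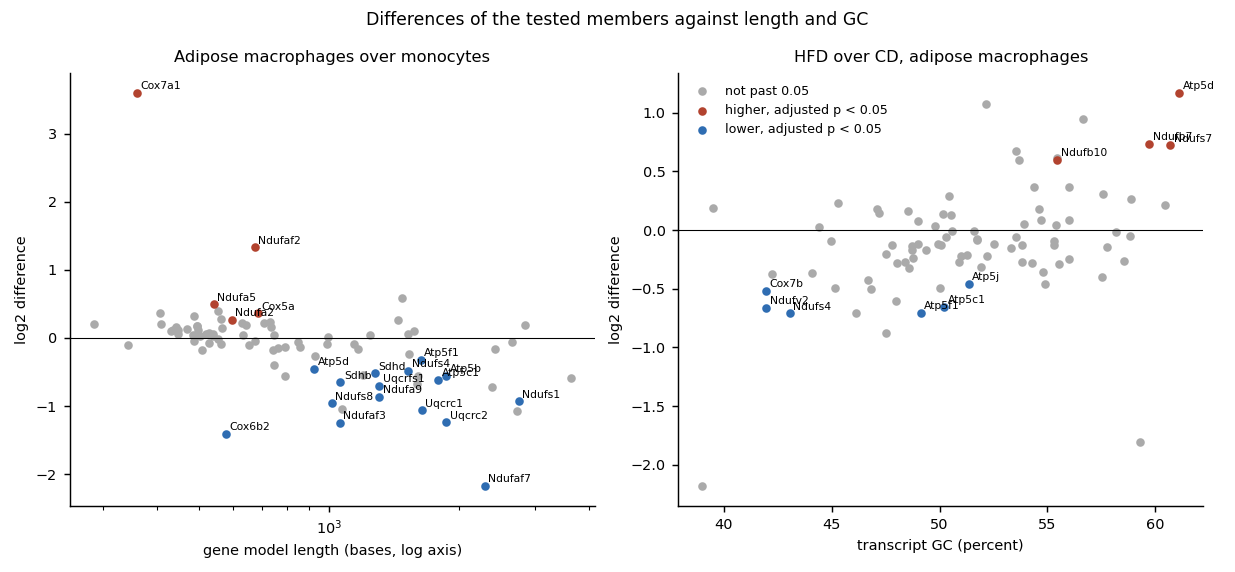
Fitted log2 differences (y axis) of tested members against gene model length for adipose macrophages over monocytes (left, logarithmic x axis in bases) and against transcript GC percent for HFD over CD in adipose macrophages (right). Cox6a2 in both panels and Ndufa4l2 on the left are left off because groups with 0 counts give no usable estimate. Members that fell on the left have a median length of 1418 bases, and members that rose on the right have 55.5% GC or more.

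Within single adipose populations each diet comparison rests on 2 HFD against 2 CD libraries. In pop1 none rose and 3 fell (3.41%, against 0.436% of all genes called, 0.0531% higher and 0.383% lower). Ndufs4 was at 84.8 and 67.9 CPM in pop1 HFD and 204 and 203 CPM in pop1 CD (log2 difference -1.41 ± 0.26, adjusted p = 0.0147, edgeR). Atp5c1 was at 87.9 and 144 CPM in pop1 HFD and 225 and 288 CPM in pop1 CD, and Atp5f1 at 134 and 122 CPM in HFD and 284 and 243 CPM in CD, with differences of -1.15 and -1.04. No pair of ranges overlapped. The calls of Atp5f1, Atp5c1 and Ndufs4 were lost in 22, 12 and 6 of the 25 fits that left out a library. None of the 3 passed without the filter on low counts or with the background covariate, and 1 passed with the length trend removed. None passed without pop1 CD 7, pop1 CD 8, pop2 CD 7, Mono CD 2 or Mono CD 6, and 1 passed without pop1 HFD 2 or 3, pop2 CD 8, pop3 CD 8, pop4 HFD 2 or 3, Mono HFD 1 or Mono CD 7.

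In pop2, 2 members rose and 3 fell with HFD (5.68%, against 4.19% of all genes called, 0.755% higher and 3.44% lower). Ndufb10 was at 287 and 307 CPM in pop2 HFD, against 126 and 134 CPM in pop2 CD, and Cox4i1, the main isoform of its complex IV subunit, was at 424 and 463 CPM in HFD, against 215 and 291 CPM in CD. Their log2 differences were 1.19 and 0.81. The Cox4i1 call was lost in 22 of the 25 fits that left out a library, and without pop2 CD 7 its difference was 0.36 (adjusted p = 0.683, edgeR). Uqcrc1 was at 15.3 and 23.3 CPM in pop2 HFD and 50.8 and 156 CPM in pop2 CD, the lowest Uqcrc1 levels of the 25 libraries being those of pop2 HFD (log2 difference -2.42 ± 0.58, adjusted p = 0.0176, edgeR). Ndufv2, at 97.6 and 212 CPM in HFD and 356 and 323 CPM in CD, fell by 1.13, and Atp5j, at 166 and 128 CPM in HFD and 249 and 272 CPM in CD, fell by 0.83. The Atp5j call was lost in 13 of those fits, and the Ndufb10, Uqcrc1 and Ndufv2 calls in 3, 3 and 2. With DESeq2 size factors or upper-quartile factors, which shift all genes by 0.15 and 0.16, 2 rose and 1 fell. With the GC trend removed 1 rose and 1 fell, and with the length trend removed 5 rose and 1 fell. With no filter on low counts 2 fell, and with the background covariate 1 rose and 1 fell. None passed without pop2 CD 8, 2 without pop2 HFD 3, and 3 without pop2 CD 7, pop1 CD 7, pop1 CD 8, any pop4 library, Mono HFD 1 or Mono CD 1, 7 or 8.

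In pop3, 2 members rose with HFD (2.27%, against 0.0943% of all genes called, 0.0825% higher and 0.0118% lower). Ndufa10 was at 48.6 and 128 CPM in pop3 HFD, against 3.74 and 6.04 CPM in pop3 CD (log2 difference 4.17 ± 0.78, adjusted p = 0.0345, edgeR). Atp5d was at 201.5 and 146 CPM in pop3 HFD, against 38.1 and 24.9 CPM in pop3 CD (log2 difference 2.46 ± 0.41, adjusted p = 0.0193, edgeR). Neither gene's ranges overlapped. Elsewhere the diet difference of Ndufa10 was 0.09 in pop1, -0.14 in pop2, 0.19 in pop4 and -0.81 in monocytes, none past the threshold. That of Atp5d was 0.85 in pop1, 0.74 in pop2, 0.63 in pop4 and 0.03 in monocytes, none past it either. With the GC trend removed or with the background covariate neither passed in pop3, and with upper-quartile factors, which shift all genes by -0.19, only Atp5d did. Neither passed without pop3 CD 8, and 1 passed without any other single pop3 library, pop4 HFD 2 or 3, Mono HFD 1 or 3, or Mono CD 3, 7 or 8.

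In pop4 and in monocytes no member passed in edgeR's test of HFD over CD, where 0.0354% and 0.0059% of all genes did, none had an unadjusted p under 0.05, and DESeq2's Wald test called none. In pop4 the log2 difference of Atp5d was 0.63 ± 0.39 (adjusted p = 0.861, edgeR), and in monocytes the smallest p was that of Atp5s (-2.32 ± 1.12, adjusted p = 0.724, edgeR). The diet effect of Tim4+ macrophages minus that of Tim4- macrophages passed for no member, where 0.637% of all genes passed, 0.0649% higher and 0.572% lower, so a difference in diet response between these populations was not shown. At an unadjusted p of 0.05, 1 member was positive and 6 negative, led by Uqcrc1 (-2.02 ± 0.55, adjusted p = 0.106, edgeR) and Ndufa10 (-2.20 ± 0.69, adjusted p = 0.173), and DESeq2's Wald test called 3. Leaving out pop2 HFD 2 gave 2 calls, and leaving out pop2 HFD 3 or pop2 CD 7 gave 1.

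Other mitochondrial and metabolic genes were counted by list in the main edgeR fit only. The lists were not counted under the other scalings, the background covariate, the removed trends or left-out libraries, which changed the members' own counts. The background for these counts was 18.5% of tested genes called up and 18.5% down for adipose macrophages over monocytes, 7.26% and 7.79% for Tim4+ over Tim4- cells, and 2.32% and 4.25% for pop4 over pop3. Of 14 genes of the TCA cycle, which feeds the chain with NADH and succinate, none rose and 7 fell in adipose macrophages over monocytes, led by Cs, citrate synthase (-0.82), and Idh3g (-0.93), and 1 rose and 7 fell in Tim4+ over Tim4- cells, led by Cs (-0.82) and Dld (-1.22). In pop4 over pop3, Idh3a (1.42) and Cs (0.75) rose and Idh2 (-1.59) fell. Of 78 mitochondrial ribosomal protein genes, whose products translate the mitochondrial subunits, 3 rose and 21 fell in adipose macrophages over monocytes, led by Mrpl4 (-2.03) and Mrpl45 (-1.51), and 11 fell in Tim4+ over Tim4- cells. Of 40 genes for cytochrome c and for assembly factors outside the rule, 1 rose (Atpif1, the inhibitor of the ATP synthase, 0.48) and 7 fell over monocytes, led by Cyc1, the cytochrome c1 of complex III (-0.95). The lists' median log2 differences over monocytes were -0.55, -0.33 and -0.32, against 0.19 over all genes.

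Of 19 glycolytic genes none rose and 8 fell in adipose macrophages over monocytes, led by the glucose transporter Slc2a1 (-3.49) and Ldhb (-6.31), and 3 rose in pop4 over pop3, led by Slc2a1 (3.48) and Aldoa (0.94). Of 16 genes of fatty acid oxidation 1 rose and 3 fell over monocytes, led by Echs1 (-1.48) and Etfb (0.52), and 3 rose in pop4 over pop3, led by Etfa (1.003) and Acaa2 (1.22). Of 13 regulators of mitochondrial biogenesis, the coactivator Ppargc1b (3.39) and the nuclear receptor Esrra (0.95) rose in adipose macrophages over monocytes, and in Tim4+ over Tim4- cells Pprc1 fell by 1.32. Of 83 tested cytosolic ribosomal protein genes 2 rose and 6 fell over monocytes, led by Rpl3l (-4.09) and Rpl5 (-1.05), below the share of all genes in both directions. With HFD in pop2, where 0.755% of all genes were higher and 3.44% lower, 4 TCA cycle genes and 9 mitochondrial ribosomal protein genes fell and none rose, led by Idh3a (-3.19), Suclg1 (-3.03), Mrpl32 (-2.29) and Mrpl35 (-2.51), while the regulators Nrf1 (3.99) and Pprc1 (4.11) rose. Across adipose HFD over CD, where 1.67% of all genes were higher and 3.67% lower, 1 TCA cycle gene rose and 2 fell, 3 mitochondrial ribosomal protein genes rose and 6 fell, and no glycolytic gene passed.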

How the data were processed

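RNA of 200 sorted cells per library was sequenced in 25 libraries, and the deposited table holds raw read counts per RefSeq gene model, 1 column per library. The submitters' processing notes name STAR 2.5.3a, HOMER and mm10. Strand, duplicates and multiply matching reads are not given in the sources used here. Gene model lengths are those of the deposited table.

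Counts were analysed with edgeR 4.0.16 (R 4.3.3): filterByExpr by group (16961 genes), TMM, and 1 robust quasi-likelihood fit of 10 group means over 25 libraries, with Benjamini-Hochberg adjustment over all genes and a threshold of 0.05. CPM were computed with TMM-scaled library sizes. Adjusted p-values in the text come from this fit unless DESeq2 (1.42.0) is named. The fitting was tested on simulated data. Contrasts weight groups equally. Promoters came from RefSeq and transcript GC from GENCODE.

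The members and gene lists were chosen with earlier results of these data known. Named members were Ndufa10, Atp5d, the core subunits and isoform pairs, the highest and lowest per kilobase, up to 8 per direction and comparison by p, and the leading 2 of each pathway list. Other members of small counts were named after their values were seen. A member that the rule would name is not reported here. The GC and length corrections were chosen after seeing the data. Alternatives were other scalings, filters, a DESeq2 Wald test, a background covariate, a replicate block, subsets and leaving out each library.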

Additional observations from a re-analysis of the deposited data

Results flagged for a closer look

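Within the 6 CD monocyte libraries, Ndufs4 was at 193 CPM in replicate 8, below the other 5 libraries (266 to 309 CPM). In the same group Cox6a2 was at 1.63 CPM in replicate 3, above the other 5 (0 to 0.127 CPM). Each was marked because the gap to the nearest library was large for the range of its group, which chance gives in about 1 in 20 groups. The screen covered every member named by comparison and the sums by complex, so some marks are expected by chance alone.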

How the results depend on the processing

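Direction under the alternatives was recorded for the leading members of each comparison by p and for Ndufa10 and Atp5d. No called member among these changed direction, except Uqcrc1 in Tim4+ over Tim4- cells, which was 0.036 (log2) in the CD groups alone. For adipose macrophages over monocytes, direction was not checked under every alternative for Ndufa9, Ndufs8, Sdhb, Atp5b, Atp5f1, Cox6b2 and Ndufaf3. The same holds for Sdhb in Tim4+ over Tim4- cells. The counts of calls were 21 (adipose macrophages over monocytes), 9 (Tim4+ over Tim4-), 0 (pop1 over pop2), 7 (pop4 over pop3), 10 (HFD over CD, adipose), 3, 5, 2 and 0 (HFD over CD in pop1 to pop4), 0 (monocytes) and 0 (difference of diet effects). With the background sum as a covariate the counts became 4 for adipose macrophages over monocytes, 0 for Tim4+ over Tim4-, 0 for pop4 over pop3 and 6 for adipose diet, and the pop1, pop2 and pop3 diet counts 0, 2 and 0. DESeq2's Wald test gave 50, 25, 4, 11, 24, 7, 17, 6 and 3 for adipose macrophages over monocytes, Tim4+ over Tim4-, pop1 over pop2, pop4 over pop3, adipose diet, pop1, pop2 and pop3 diet and the difference of diet effects. DESeq2 size factors gave 3 for pop4 over pop3 and 3 for pop2 diet, and upper-quartile factors 3 for pop2 diet and 1 for pop3 diet. With no filter on low counts the pop1 and pop2 diet counts were 0 and 2. In CD groups alone Tim4+ over Tim4- gave 1, and summed counts gave 0 for adipose diet. Removing a length trend gave 15 for Tim4+ over Tim4-, 4 for pop4 over pop3 and 1 for pop1 diet, and removing a GC trend gave 1 for pop1 over pop2, 2 for pop2 diet and 0 for pop3 diet. The cause of these changes was not tested.

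The labels do not say whether equal title numbers mark the same animal. Correlations of same-numbered libraries' deviations within a title series ranged from -0.0393 to 0.0734 over 40 pairs. In adipose groups, which hold 2 libraries each, deviations mirror each other, so pairs of the same groups repeat 1 value. These correlations cannot settle whether title numbers pair libraries, since noise between small pools can hide a shared animal. With the title number as a replicate block, adipose macrophages over monocytes gave 11 calls, Tim4+ over Tim4- 5, pop4 over pop3 2, and pop1 over pop2, monocyte diet and the difference of diet effects 0.

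Leaving out each library gave 17 to 24 calls for adipose macrophages over monocytes, 6 to 13 for Tim4+ over Tim4-, 0 to 4 for pop1 over pop2, 2 to 9 for pop4 over pop3, 6 to 13 for adipose diet, 0 to 3, 0 to 7 and 0 to 2 for pop1, pop2 and pop3 diet, 0 to 2 for the difference of diet effects, and 0 for pop4 and monocyte diet. An adipose group left with 1 library is assumed to vary like the others. The summed level of members ranged from 12629 to 12936 CPM in monocytes, 11071 to 11749 in pop1, 11746 to 11910 in pop2, 10812 to 11187 in pop3 and 13039 to 13422 in pop4. By library total the sum was 12432 CPM in pop2 and 11488 in pop3, and by DESeq2 size factors 13109 in pop2 and 12578 in pop4. Structural subunits alone gave 11293 CPM in pop2, 10527 in pop3 and 12433 in pop4. Members near 3 counts cannot be compared at this depth.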
